A study of Schizosaccharomyces pombe with 3 samples.

Results

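The transcriptome of the fission yeast *dhp1-1* mutant was compared with that of wildtype over every strand-specific tile of a tiling microarray. A tile is the mean log2(*dhp1-1*/wildtype) of up to 20 probes whose numbers are all odd or all even within a block of 40 consecutive probe numbers, and 10 or more usable probes were required. All 8704 tiles of the 8704 on the array met this requirement, 4352 of odd-numbered and 4352 of even-numbered probes, and 7366 of them had all 20 probes usable in both replicates. The fewest usable probes in a tile were 11.

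Dhp1 is the fission yeast ortholog of Rat1 and Xrn2, a nuclear exonuclease that degrades RNA from its 5′ end. It is known for its part in the termination of transcription by RNA polymerase II, where it degrades the RNA left behind downstream of the cleavage site, and in RNA quality control. In fission yeast, heterochromatin covers the repeats next to the centromeres, the mating type region and the chromosome ends, and transcripts from these regions are kept low. RNA that lies beyond the ends of genes, or on the strand opposite to a gene, can be followed only with probes for each strand.

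Each array compared mutant RNA, labelled with Cy5, with wildtype RNA, labelled with Cy3. The *dhp1-1* strain p1088 was measured on 2 arrays, which the series describes as biological replicates, against the wildtype strain p1087. A 3rd array held *din1Δ* (strain p1044) against another wildtype strain, p344. In *dhp1-1*, *ura4*+ takes the place of a piece at the end of the *dhp1* coding region, so that Dhp1 is shortened, and cells fail to grow when warm. This strain also carries *Mat1 Msmt0*, *leu1-32*, *ade6 DN/N*, *ura4 DS/E* and the reporters *otr1R(Sph1)::ura4*+ and *mat2::ade6*+, and the genotype of p1087 is not listed beside it. All cultures were in log phase in YEA at 30°C, which is permissive for *dhp1-1*. Ribosomal RNA was depleted, and cDNA was primed with anchored oligo(dT) and random hexamers. The ratio was tested against 0, which leaves out the spread of the wildtype on its own. The p-values rest only on the spread between these 2 arrays, most of it pooled over all tiles. A tile whose replicates differ much can therefore still be called. The dyes were not swapped, so the dye of a channel and the strain in it cannot be told apart. Replicate 1 and *din1Δ* lay on 1 slide and replicate 2 on another.

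Probe sequences, positions and gene names were not used here, and tiles are given by the numbers of their probes. Strand was inferred from the probe numbers. The wildtype signal of a probe correlated with that of the probe 2 numbers away at 0.69 and 0.65 in the replicates, and with that of its immediate neighbour at -0.12 and 0.12, over 174061 and 174062 pairs of probes. Which of the 2 parities is the forward strand was not settled. To place tiles along the chromosomes, landmark genes were used whose probe runs had been found through the ratios listed for 36 genes by the study. In probe order, all 11 neighbouring pairs of landmarks on chromosome II, all 10 on chromosome III and all 10 on chromosome I follow the gene order of assembly ASM294v3. Of the 36 genes, 26 matched a single run, and genes with several runs were also used in this check of order. Among the landmarks named here, several runs matched for *clr3*, *clr1* and *cid14*, and the first was used.

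Of the numbered probes, 71.7% in replicate 1 and 67.3% in replicate 2 were well above background for wildtype RNA, and 84.3% and 71.0% for mutant RNA. The arrays also hold 1577 probes of random sequence by name, whose median log2 ratio was -0.23 in both *dhp1-1* replicates and 0.01 in *din1Δ*. The zero of the ratio, set by loess over all probes, therefore lies above the ratio of these probes in *dhp1-1*.

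More tiles were raised than lowered in *dhp1-1*. At an adjusted p under 0.05 (limma, Benjamini-Hochberg adjustment over 8704 tiles) and with the same sign in both replicates, 1636 tiles were raised, or 18.8% of all tiles, and 902 were lowered, or 10.4%. A further 829 tiles had an unadjusted p under 0.05 and were not called. The changes were mostly small. The median log2 ratio of the raised tiles was 0.47 in replicate 1 and 0.37 in replicate 2, and their median over both replicates, 0.40, is a 1.32-fold increase. The median of the lowered tiles was -0.37 and -0.35, a ratio to wildtype of 0.784. The smallest size called was 0.23 on the log2 scale. The split between the directions depends on the zero. With the median of the random probes as zero in each array, 5033 tiles were raised and 241 were lowered. The ratios of the authors' deposited table, which holds 0 at most probes, left 12 tiles raised and 3 lowered by the same test, and median centring in place of loess gave 1167 and 516.

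A limit of 1.6-fold, or 0.68 on the log2 scale, is one the study calls usual for array data. The mean of the replicates was past it upwards in 314 tiles (3.61%) and downwards in 73 tiles (0.839%), and all of these tiles were called. The counts were 694 and 190 with the ratio of the scanner software, and 520 and 128 with the deposited table. Both replicates were past it upwards in 206 tiles (2.37%) and downwards in 59 tiles (0.678%). For 2-fold, 93 tiles were past the limit upwards and 22 downwards, and for 4-fold 15 and 1. More tiles were thus past each of these limits upwards than downwards.

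The replicates were alike over the tiles. The ratio had the same sign in both replicates at 75.2% of the tiles, and was above 0 in both at 3598 tiles (41.3%) and below 0 in both at 2950 tiles (33.9%). The Pearson correlation of the replicates was 0.836 across the 8704 tiles, which share probes of one array design and are not independent. Replicate 2 was the smaller in size at 75.7% of the raised tiles and at 52.1% of the lowered tiles. Within a raised tile, a median of 84.5% of the probes lay above 0, averaged over the replicates, and within a lowered tile a median of 12.5% did, against 47.5% in tiles that were not called. Odd and even tiles gave like counts, with 805 and 831 raised and 464 and 438 lowered.

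**Figure D1:**
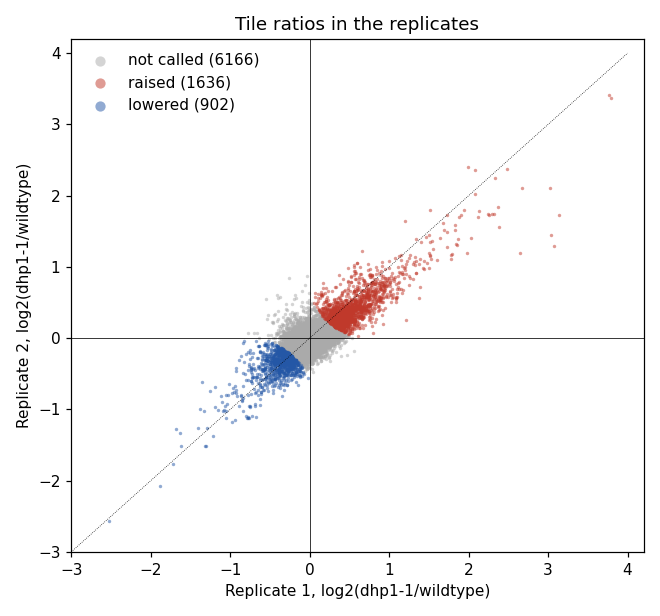
Each point is 1 of 8704 tiles, with log2(dhp1-1/wildtype) in replicate 1 on the horizontal axis and in replicate 2 on the vertical axis; red, blue and grey mark raised, lowered and not called tiles, and the dotted line marks equal values. The points lie along the diagonal, and the 1636 raised tiles reach farther from 0 than the 902 lowered tiles.

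The highest tiles reached about 12-fold over wildtype, and they came from few places. The 10 raised tiles with the highest ratio lie in 8 blocks, with mean log2 ratios between 2.19 and 3.59. The highest was the tile of probes 99001 to 99039, at 3.77 in replicate 1 and 3.42 in replicate 2, or 12.1-fold (standard error 0.0958, limma adjusted p = 3.94e-16). The tile of the opposite strand, probes 99002 to 99040, was at 2.09 and 2.36. Both strands of this block were thus far above wildtype in both replicates. On the strand of the highest tile, the tile before it was lowered (-0.42 and -0.45) and the tile after it was raised only to 0.54 and 0.35.

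The second block of this kind was that of probes 92201 to 92240. Its even tile was at 3.79 and 3.36, with a mean of 3.58 (standard error 0.0997, limma adjusted p = 4.63e-16), or 12.0 times the wildtype level, and its odd tile was at 1.99 and 2.40. In *din1Δ* the highest of these 4 tiles was at 0.05. Both blocks lie between *clr1*, a subunit of the SHREC silencing complex, and *las1*, an endonuclease subunit in ribosomal RNA processing, on chromosome II. Their identity was not established.

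The third highest tile, probes 112082 to 112120, was raised on 1 strand. Its log2 ratio was 3.03 and 2.10, its neighbours on the same strand were at 1.47 and 1.59 as means of the replicates, and the opposite tile was at -0.27 and 0.06. Wildtype RNA gave a signal above background at 45.0% and 20.0% of its probes, and mutant RNA at all of them. The tile of probes 53161 to 53199 was similar, at 2.67 and 2.10, with 40% and 15.8% of its probes above background in wildtype. Here the opposite tile was lowered, to -0.74 and -0.40. These were the 2 of the 10 highest tiles that were silent in wildtype, that is, with fewer than 50% of their probes above background on at least 1 of the arrays.

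The tiles of probes 20602 to 20640 (2.48 and 2.38) and 11642 to 11680 (2.33 and 2.25) were above background in wildtype at 90% or more of their probes. Their opposite tiles were raised as well. Of 20 probes, 15 lay above 0 in each replicate at the former, and 16 and 18 at the latter. The SD between the replicates was 0.0716 and 0.0550 at these 2 tiles. In contrast, the tiles of probes 114042 to 114080 (3.13 and 1.73) and 114322 to 114360 (3.03 and 1.45) differed between the replicates, with an SD of 0.991 and 1.12. Both lie in the brightest stretch of the array, which is described further on, at places that match each other 7 blocks apart. Of the 10 highest tiles, 8 had a raised tile on the opposite strand, against 18.8% of all tiles, and 15 of their 20 neighbours on the same strand were raised. As the tiles were named for the size of their ratio, these counts describe them and test nothing.

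The lowest tile fell much less far than the highest rose. The 10 lowered tiles with the lowest ratio lie in 9 blocks, with mean log2 ratios between -2.54 and -1.30, or 2.46-fold to 5.84-fold below wildtype. The lowest was the tile of probes 111681 to 111719, at -2.53 in replicate 1 and -2.56 in replicate 2 (standard error 0.0875, limma adjusted p = 1.96e-14). Its opposite tile, probes 111682 to 111720, was at -1.41 and -1.27. On the strand of the lowest tile, the tile before it (0.74 and 0.36) and the tile after it (1.30 and 0.83) were both raised, so that the change of direction falls within 1 tile on each side.

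The next lowest tiles lie near the start of the array, before *clr3*, which codes for the histone deacetylase of SHREC. They were the tiles of probes 2681 to 2719 (-1.89 and -2.07), 2241 to 2279 (-1.72 and -1.77) and 2602 to 2640 (-1.63 and -1.52). The tiles of probes 9402 to 9440 (-1.32 and -1.51) and 9441 to 9479 (-1.22 and -1.38) are in neighbouring blocks on opposite strands, shortly after *clr3*. The remaining tiles were those of probes 101562 to 101600 (-1.68 and -1.28), 16241 to 16279 (-1.63 and -1.33) and 22962 to 23000 (-1.30 and -1.52). All 10 were above background in wildtype at 50% or more of their probes on both arrays. In mutant RNA of replicate 2, 5% of the probes of 2681 to 2719 were above background, 30% of 2602 to 2640 and 40% of 9402 to 9440. For 111682 to 111720 this was 45% and 41.2% in the replicates, and the other named tiles were at 50% or more. How far background limited these falls was not tested. Of the 10, 8 had a lowered tile on the opposite strand, against 10.4% of all tiles. The tile opposite that of probes 16241 to 16279 was raised instead, to 0.33 and 0.29.

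**Figure D2:**
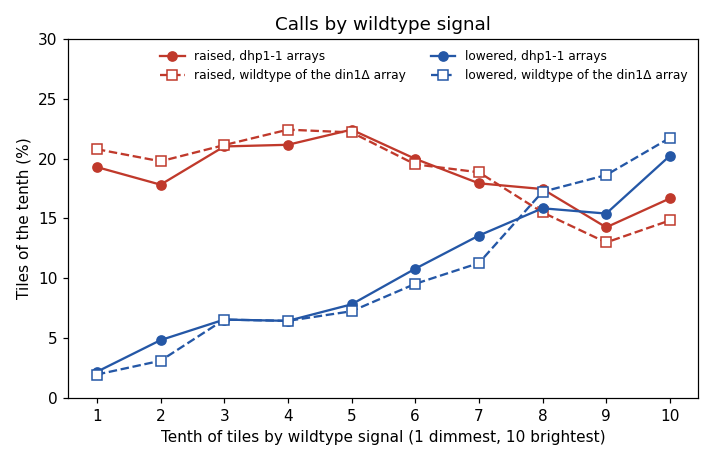
Share of tiles raised (red) and lowered (blue) in 10 classes of equal size of the 8704 tiles by wildtype signal, from the wildtype channel of the dhp1-1 arrays (filled points) and of the din1Δ array (open squares). Lowered tiles rise from 2.18% in the dimmest class to 20.2% in the brightest, while raised tiles lie between 14.3% and 22.4% for the filled points and between 13.0% and 22.4% for the open squares.

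Lowered tiles were more frequent where wildtype was bright, by an amount that depended on the centring. Tiles were ranked by their wildtype signal, the mean log2 intensity over both arrays, and divided into 10 classes of equal size. In the dimmest class (log2 signal 6.21 to 7.11), 19 of 871 tiles were lowered, or 2.18%, and in the brightest (10.4 to 15.6) 176 of 870, or 20.2%. The share was 6.44% in the fourth class, 10.8% in the sixth and 15.8% in the eighth. Raised tiles made up 19.3% of the dimmest class, 22.4% of the fifth, 14.3% of the ninth and 16.7% of the brightest. The median log2 ratio went from 0.03 in the dimmest to -0.05 in the brightest class.

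With median centring in place of loess, 7.46% of the dimmest class and 17.4% of the brightest were lowered, and 14.0% and 8.74% were raised. The wildtype channel is also the denominator of the ratio, so this relation is given with no test. Ranking the tiles by the wildtype channel of the *din1Δ* array, which does not enter the *dhp1-1* ratio and holds another strain, gave 1.95% lowered in the dimmest and 21.7% in the brightest class. The share raised was 20.8% and 14.8%. Lowered tiles thus covered a similar range of shares when the signal came from an array outside the ratio. Of the tiles in the dimmest class of the first ranking 0 had 50% or more of their probes above background in wildtype on both arrays. All of those in its brightest class did, and the part of background in the result was not tested.

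Tiles were next divided by whether each strand was transcribed in wildtype, meaning that 50% or more of the probes were above background on both arrays. By this measure 6405 tiles, or 73.6%, were transcribed. Among 1655 transcribed tiles with a silent opposite strand, 330 (19.9%) were lowered and 188 (11.4%) were raised. Their silent partners went the other way, with 58 (3.50%) lowered and 289 (17.5%) raised. Among 4750 transcribed tiles with a transcribed partner, 482 (10.1%) were lowered and 988 (20.8%) raised. Raised tiles were the most frequent in blocks silent on both strands, at 171 of 644 tiles (26.6%), with 32 (4.97%) lowered. The share of lowered tiles was thus highest, and that of raised tiles lowest, on transcribed strands with a silent partner.

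A gain of signal over background was more frequent than a loss. In all, 735 tiles were silent in wildtype and had 50% or more of their probes above background in *dhp1-1* on both arrays, of which 294 were raised, 70 of them past 1.6-fold. In the reverse direction 100 tiles were transcribed in wildtype and silent in *dhp1-1*, of which 42 were lowered, 10 of them past 1.6-fold. Both sets of tiles were picked by the same channels that form the ratio. The counts raised and lowered among them therefore follow in part from the choice, and they describe these tiles and test nothing. As the mutant channel was above background at more probes of both arrays, the counts of gain and loss also carry this difference between the channels. Of the 1636 raised tiles, 1176 (71.9%) were transcribed in wildtype, close to the 71.6% of tiles that were not called, and of the 902 lowered tiles 812 (90.0%) were.

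**Figure D3:**
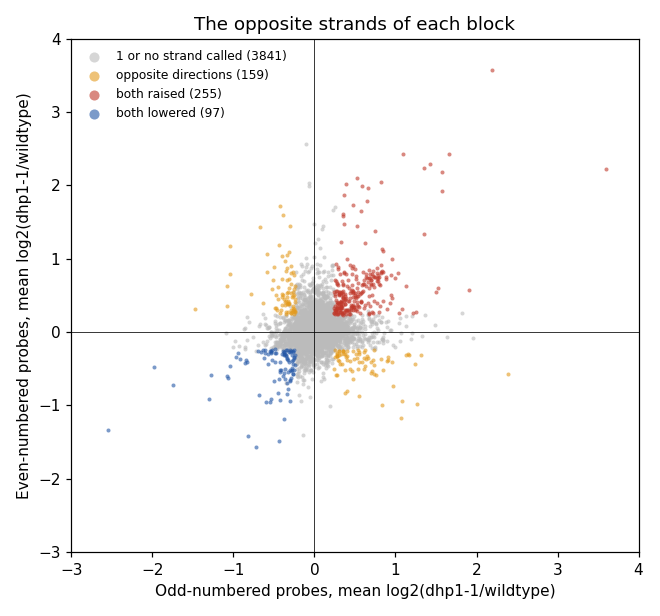
Each point is 1 of 4352 blocks, with the mean log2(dhp1-1/wildtype) of its odd-numbered probes on the horizontal axis and of its even-numbered probes on the vertical axis. Red marks the 255 blocks raised on both strands, blue the 97 lowered on both and orange the 159 called in opposite directions.

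Opposite strands of a block changed in the same direction more often than in opposite directions. Both strands were raised in 255 blocks (5.86%) and both lowered in 97 (2.23%), while 159 blocks had 1 strand raised and the other lowered. In 2325 blocks (53.4%) neither strand was called. The tile opposite a raised tile was itself raised in 510 of 1636 cases, or 31.2% (95% exact binomial interval 28.9% to 33.5%, which treats tiles as independent), against 18.8% of all tiles. It was lowered in 9.72% of cases (8.33% to 11.3%), against 10.4% of all tiles. The tile opposite a lowered tile was lowered in 21.5% of cases (18.9% to 24.3%), against 10.4%, and raised in 17.6% (15.2% to 20.3%), against 18.8%. The shares in the same direction thus lay above those of all tiles, while the shares in opposite directions lay close to them. The intervals also count a block called alike on both strands once per strand. They are thus too narrow and serve as description only.

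The correlation of the mean ratio between the strands of a block was 0.27 across 4352 blocks, which share a place on the chromosome. The wildtype signals of the strands correlated at -0.10. Along a strand, the ratios of neighbouring tiles correlated at 0.32 for odd and 0.41 for even tiles. The tile that followed a raised tile on the same strand was raised in 38.7% of cases and lowered in 6.36%, and the tile that followed a lowered tile was lowered in 26.2% and raised in 12.2%. Raised and lowered tiles therefore both had neighbours of their own direction, along the strand more than across it.

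Blocks raised on both strands were mostly those with like signals on the strands in wildtype. Where the wildtype signals of the strands differed by less than 1 log2 unit, both strands were raised in 145 of 1419 blocks (10.2%). Where they differed by 1 to 2 units this was 61 of 1277 (4.78%), and for 2 to 4 units 48 of 1602. In the last of these classes the brighter strand was lowered in 329 blocks (20.5%) and raised in 174 (10.9%), while the dimmer strand was lowered in 64 and raised in 264 (16.5%). The combination of a lowered brighter strand and a raised dimmer strand was found in 49 blocks of this class, and the reverse in 3. The shares of each strand on its own already differ in this direction, and whether the combinations go beyond them was not tested. The brighter strand was set by the wildtype channel, which is also the denominator of the ratio.

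The separation of the strands was not the same on both arrays. Replicate 2 had a higher wildtype signal on strands opposite to bright strands. In tiles whose opposite strand was in the dimmest class, the wildtype signal of replicate 2 was above that of replicate 1 by a median of 0.22 log2 units, and where the opposite strand was in the brightest class by 0.97. For the mutant signal these values were -0.28 and 0.67. The ratio of *dhp1-1* to wildtype moved much less, from -0.06 to 0.06 for replicate 2 minus replicate 1. The part of this difference between the arrays in the pairing of the strands was not tested.

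**Figure D4:**
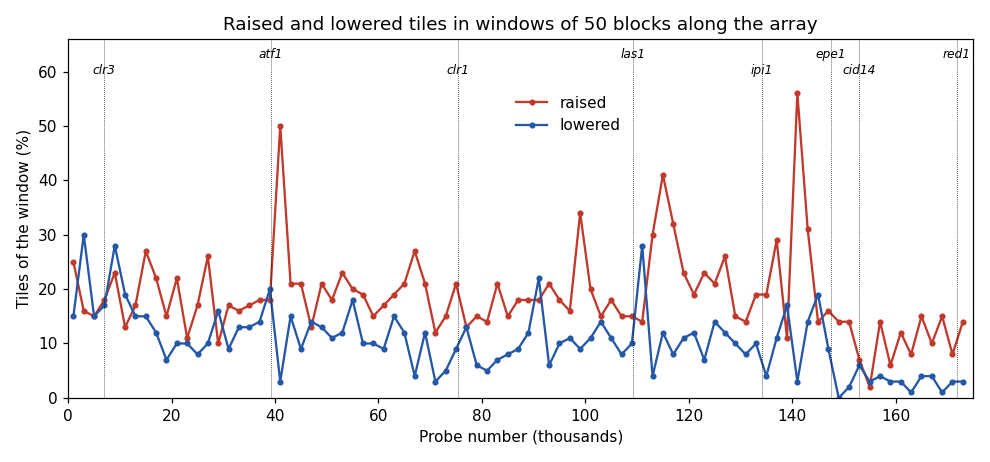
Share of tiles raised (red) and lowered (blue) in 87 windows of 50 blocks, or 100 tiles each, against probe number; dotted lines mark the first probes of landmark genes. The share raised is highest, at 56% and 50%, in 1 window between ipi1 and epe1 and 1 between atf1 and clr1, where 3% of the tiles are lowered.

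Along the array, the shares of raised and of lowered tiles both varied from place to place. The array was divided into 87 windows of 50 blocks, each with 100 tiles over 2000 probe numbers. The share of raised tiles per window ran from 2% to 56%, with a median of 18%, and was above 30% in 6 windows. The share of lowered tiles ran from 0 to 30%, with a median of 10%. In 11 windows more tiles were lowered than raised.

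The 3 windows with the highest share of raised tiles lie at probes 140001 to 142000 (56%), 40001 to 42000 (50%) and 114001 to 116000 (41%). The first lies between *ipi1*, which codes for a protein of the Rix1 complex, and *epe1*, which codes for a factor that opposes heterochromatin. Of its 100 tiles, 30 were past 1.6-fold upwards and 1 downwards. The second lies between *atf1*, which codes for a DNA-binding stress factor, and *clr1*, with 20 tiles past 1.6-fold upwards and 0 downwards. As a whole, these 2 intervals hold 29 of the 47 transfer RNA genes of chromosome III and 38 of the 68 of chromosome II in the gene order of ASM294v3. Of genes of all kinds they hold 640 of 2369 and 1524 of 4653. In fission yeast clusters of transfer RNA genes flank the centromeres. The intervals are much longer than the windows, and whether the windows lie at such clusters was not established. Median log2 ratios over these 2 windows were 0.36 and 0.31 in the replicates, and 0.26 and 0.26. The *din1Δ* medians were 0.10 and 0.09.

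The 3 windows with the highest share of lowered tiles were those of probes 2001 to 4000 (30%), 8001 to 10000 (28%) and 110001 to 112000 (28%). They held 12, 7 and 7 tiles past 1.6-fold downwards, of 73 on the array. The first lies before *clr3*, the first landmark of chromosome II, the second soon after it, and the last follows *las1*, the last landmark of that chromosome. These windows thus lie near the first and the last landmark of chromosome II. Raised tiles were present there too, at 16%, 23% and 14%.

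By landmark, the share of lowered tiles was highest before *clr3*, at 65 of 344 tiles (18.9%). It was 13.6% between *clr3* and *atf1*, 10.6% between *atf1* and *clr1*, 9.92% between *clr1* and *las1*, 11.6% between *las1* and *ipi1* and 11.3% between *ipi1* and *epe1*. The share of raised tiles was highest between *ipi1* and *epe1*, at 174 of 670 (26.0%), followed by the interval between *las1* and *ipi1*, at 283 of 1238 (22.9%), which holds the change from chromosome II to III. It lay between 17.9% and 20.6% in the other intervals before *epe1*.

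From *epe1* on, the landmark genes had few probes each, and both directions became rarer. Before *epe1*, 1493 of 7374 tiles were raised (20.2%) and 864 were lowered (11.7%), and from *epe1* on 143 of 1330 (10.8%) and 38 (2.86%). The SD of the mean ratio over tiles fell from 0.33 to 0.19, and of the tiles past 1.6-fold 12 of 314 upwards and 0 of 73 downwards lay in the later part. The landmark *epe1* was covered by 6 probes and *red1*, near the end of the array, by 5, while *atf1* was covered by 23 and *clr3* by 27. A tile of up to 20 probes thus holds more probes than *epe1* or *red1* had, and fewer than *atf1* or *clr3*. Tiles before and after *epe1* are therefore unlike units, and their shares are not a comparison of chromosomes. The number of probes per landmark gene moved with these counts, and its part in them was not tested.

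Runs of raised and of lowered tiles were counted on each strand, where 18.8% and 10.4% of all tiles were raised and lowered, and the more frequent call forms longer runs for that reason alone. Of 1004 runs of consecutive raised tiles, 664 were single tiles and 123 had 3 tiles or more, and the latter held 538 tiles, or 32.9% of all that were raised. Of 666 runs of lowered tiles, 488 were single and 36 had 3 or more, with 14.4% of the lowered tiles. Runs of 5 tiles or more numbered 29 for raised and 4 for lowered tiles.

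The 2 longest runs were the strands of a single stretch, probes 141721 to 142480, between *ipi1* and *epe1*. All 19 even and all 19 odd tiles were raised, with means of 0.69 and 0.79 in the replicates on the even and 0.70 and 0.72 on the odd strand. The tiles were even in height, from 0.60 to 0.87 on the even strand and from 0.51 to 0.95 on the odd strand as means of the replicates. Values of *din1Δ* were 0.10 and 0.11 on average, and 16 of the 19 tiles of each strand were higher in *dhp1-1* than in *din1Δ* (limma, adjusted p under 0.05, where the spread of *din1Δ*, measured once, was taken from the *dhp1-1* replicates), against 8.77% of all tiles, a count that shares its *dhp1-1* values with the calls. A second stretch, probes 140761 to 141240, held 12 raised tiles of 12 on the odd and 11 of 12 on the even strand. In the 12 blocks between them 2 odd and 4 even tiles were raised, and there only 1 odd and 2 even tiles were transcribed in wildtype.

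The interval between *atf1* and *clr1* also held a pair of raised stretches on both strands, with a smaller distance from *din1Δ*. Probe sequences were not used, so whether probes of the 2 intervals share sequence and read the same RNA was not established. Probes 40441 to 40800 held 9 raised tiles of 9 on each strand, and probes 41361 to 41680 held 7 of 8 odd and 8 of 8 even tiles. The mean log2 ratios were 0.64 and 0.71 (odd) and 0.69 and 0.71 (even) in the first, and 0.52 and 0.61 (odd) and 0.66 and 0.70 (even) in the second. In *din1Δ* the means were 0.21 (odd) and 0.25 (even) in the first and 0.15 and 0.21 in the second, and 5 odd and 4 even tiles of 9, and 5 odd and 4 even tiles of 8, were higher in *dhp1-1* than in *din1Δ*. Of the 14 blocks between them, 6 odd and 5 even tiles were raised and 0 were past 1.6-fold, and 1 odd and 0 even tiles were transcribed in wildtype. No tile was lowered in the blocks from the first to the second run, on either strand, in either interval. The mean wildtype signal of replicate 2 was 8.85 (odd) and 8.77 (even) in the first run and 8.78 and 8.76 in the second, so that the strands were alike in wildtype too.

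The third longest run, 17 even tiles of probes 113922 to 114600, differs from all others in its signal. It lies between *las1* on chromosome II and *ipi1* on chromosome III, and 15 of the 20 brightest wildtype tiles of the array are in these blocks. Repeats of the ribosomal RNA genes lie at both ends of chromosome III in fission yeast. Ribosomal RNA had been depleted from the samples, and whether these probes measure it was not established. The even tiles had a mean log2 ratio of 2.02 in replicate 1 and 1.49 in replicate 2, and the odd tiles of 0.51 and 0.61, with 12 of 17 raised. In *din1Δ* the even tiles were raised too, to a mean of 1.31, and 5 of the 17 were higher and 2 lower in *dhp1-1* than in *din1Δ*.

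Within this stretch, the ratios of 7 blocks recurred in the following 7, with mean ratios within 0.27 (odd) and 0.26 (even) of each other. Their wildtype signals were less alike, and differed by up to 1.38 (odd) and 0.86 (even) log2 units. The blocks that start at probes 114321 and 114361 match those that start at 114041 and 114081. These 4 blocks were picked because the wildtype signals of the arrays differed by over 2 log2 units. In these the wildtype signal of the even tiles was 8.48 to 10.3 in replicate 1 and 11.7 to 12.9 in replicate 2, on the log2 scale, so that the wildtype channels of the arrays disagree. The ratios were 2.65 to 3.13 in replicate 1 and 1.20 to 1.73 in replicate 2. In the other 13 blocks the even tiles had ratios of 0.15 to 2.38 and 0.65 to 1.80. The replicates thus did not overlap on the even strand of the 4 blocks. The wildtype signal enters the ratio, so this gap is not separate from the choice of the blocks. The stretch itself holds 12 odd and 17 even raised tiles and 0 lowered tiles. With its 17 blocks left out and the test fitted and adjusted anew, 1634 tiles of 8670 were raised and 929 lowered.

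The longest run of lowered tiles was that of probes 2521 to 2799, 7 odd tiles before *clr3*, with means of -0.86 and -1.02 in the replicates. Its tiles ranged from -1.98 to -0.25 as means of the replicates, and 6 of 7 were lower in *dhp1-1* than in *din1Δ*, whose mean was -0.07. On the opposite strand, the 5 even tiles of probes 2522 to 2720 were lowered too (-0.75 and -0.80), while the even tile of probes 2762 to 2800 was raised. This even run was 1 of 3 lowered runs of 5 tiles, ordered here by the size of their mean ratio. The next, 5 odd tiles of probes 111041 to 111239, followed *las1* and was at -0.62 and -0.44, and in *din1Δ* at -0.46. In this run 1 of the 5 opposite tiles was lowered.

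**Figure D5:**
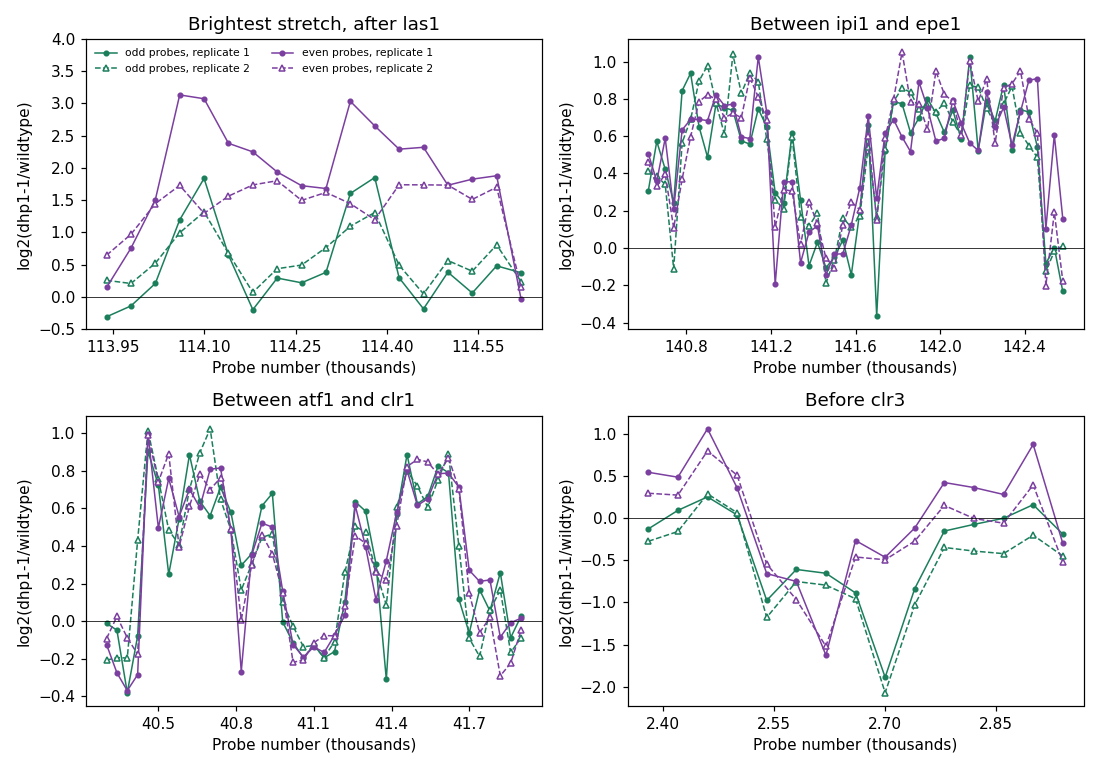
Log2(dhp1-1/wildtype) of the tiles along 4 stretches, against probe number, for odd (green) and even (purple) probes in replicate 1 (filled, solid) and replicate 2 (open, dashed). The stretches between ipi1 and epe1 and between atf1 and clr1 each show 2 raised runs on both strands around a lower middle, that after las1 a raised even strand with a gap between the replicates, and that before clr3 a run of lowered tiles.

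Over all tiles, *dhp1-1* was higher than *din1Δ* at 763 tiles (8.77%) and lower at 397 (4.56%) at an adjusted p under 0.05 from limma. These counts were 402 and 168 with median centring, and 307 and 238 where both channels had to exceed background. The next counts describe the calls and test nothing, since both comparisons use the same *dhp1-1* values. Of the 1636 raised tiles, 567 (34.7%) were among the higher and 3 among the lower, and of the 902 lowered tiles 260 (28.8%) were among the lower and 19 among the higher. The *din1Δ* ratio was above 0 at 66.4% of the raised tiles and at 37.9% of the lowered tiles, against 52.1% of all tiles. These values have no replicate, and the arrays of the mutants had different wildtype strains, so that a difference between the mutants and one between the strains cannot be told apart.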

How the data were processed

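Agilent 2-colour tiling arrays compared RNA of *dhp1-1* (2 arrays) and of *din1Δ* (1 array) with that of wildtype. Per the labels, the authors extracted the spots with Agilent Feature Extraction 10.7.3.1. They deposited spot and background intensities without normalization, the log10 ratio of Cy5 over Cy3 of the scanner software, flags for outlying and dim spots, and a table of log2 ratios that holds 0 at 64.4% and 72.5% of the numbered probes of the *dhp1-1* replicates. All sample columns of that table were used, and 0 were left out. The number of arrays limits the precision.

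Median spot intensities were corrected with normexp (offset 50) and normalized by loess within each array, in limma 3.58.1 (R 4.3.3), without control spots and outliers, of which there were 295 and 1345 on the *dhp1-1* arrays. No spot was saturated. The tile means were tested with lmFit and eBayes, as ratio against 0 and as difference from *din1Δ*, and adjusted by Benjamini-Hochberg over 8704 tiles. With 2 arrays, most of the spread of a tile is borrowed from all tiles. The functions were checked on simulated tiles. Summaries used Python 3.11.15.

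Named were the 10 highest and 10 lowest called tiles, and the 3 longest runs and 3 full windows in each direction. Members and lists were chosen with earlier results of these data known. The genes listed by the study were not described, and served as landmarks only. The array design and the study's methods name different genome annotations, and no coordinates are given. Alternatives covered the background correction, the centring, the scanner software's ratio, the table's ratio, filters on dim probes, the tile frame and size, regions of the array, the zero and leaving out a replicate.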

Additional observations from a re-analysis of the deposited data

Results flagged for a closer look

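The ratio in *dhp1-1* differed from that in *din1Δ* at 763 tiles that were higher and 397 that were lower, by a test of the difference (adjusted p under 0.05 from limma, the spread of *din1Δ* being taken from the *dhp1-1* replicates). The 20 named tiles were chosen for their *dhp1-1* ratios, which also enter this difference, so that their values are a description; 19 passed the threshold. For the raised tiles, *dhp1-1* minus *din1Δ* was 3.54 at probes 99001 to 99039 and 3.54 at probes 92202 to 92240 on the log2 scale. It was 2.62 at probes 11642 to 11680, 2.38 at probes 112082 to 112120, 2.31 at probes 53161 to 53199 and 2.11 at probes 20602 to 20640. The tiles opposite the 2 highest differed by 2.22 (probes 99002 to 99040) and 2.18 (probes 92201 to 92239). In the brightest stretch the differences were 1.47 (probes 114042 to 114080) and 1.78 (probes 114322 to 114360).

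For the lowered tiles the difference was -2.06 at probes 111681 to 111719, -1.79 at probes 2241 to 2279, -1.69 at probes 2681 to 2719 and -0.836 at probes 2602 to 2640. It was -1.56 at probes 22962 to 23000, -1.54 at probes 9441 to 9479, -1.50 at probes 9402 to 9440, -0.831 at probes 16241 to 16279 and -0.719 at probes 101562 to 101600. At the last 2 of these the *din1Δ* array was itself below wildtype, at -0.65 and -0.76. At the tile of probes 111682 to 111720 the difference was -0.41, with a limma adjusted p = 0.0865 that missed the threshold.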

How the results depend on the processing

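Of 92 values under alternatives, 65 stayed close to those reported, 27 moved and 0 reversed. All are counts or shares, which could not reverse, so the 0 carries no information. Adding the single *din1Δ* array to the fit could not change the counts of called tiles, and these values are among the 65. The causes of the moves were not tested. The ratios of the deposited table left 12 tiles raised and 3 lowered (2089 at an unadjusted p under 0.05), with 520 past 1.6-fold up and 128 down. The scanner software's ratio gave 694 up and 190 down. With median centring in place of loess, 516 tiles were lowered, 402 were higher and 168 lower than in *din1Δ*, and 27.4% of raised tiles had a raised opposite tile. In the brightest class 8.74% were then raised and 17.4% lowered, and in the dimmest 14.0% and 7.46%. Where a probe had to exceed background in both dyes (5900 tiles left), 932 were raised, and 307 were higher and 238 lower than in *din1Δ*. Where 1 dye sufficed, 79.8% of the dimmest class were raised and 0 lowered, among 84 tiles left. As tiles of this class were silent in wildtype, they passed this filter only with probes above background in mutant RNA. These shares therefore follow in part from the filter and test nothing. Without background correction 256 were lower than in *din1Δ*. The slide as a block leaves 1 array against 1 with no test, and 365 tiles were past 1.6-fold higher and 100 lower. With the zero at the random probes, 5033 were raised and 241 lowered. Both replicates were past 1.6-fold in 206 and 59 tiles. Windows of 25 blocks reached 42% lowered. Leaving out 1 replicate gave 256 to 405 tiles past 1.6-fold up and 79 to 103 down. Counts of called tiles could not be had from 1 array. The alternatives on the zero, the brightest stretch and the part before *epe1* were chosen after seeing the data. No paired analysis was possible because *din1Δ* had a single array. The number of arrays and the dim wildtype signal limit these values.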
